A study of Mus musculus with 16 samples.

Results

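The comparison asked whether a CXCR2 inhibitor changed gene expression in mouse hepatocytes differently when the cancer cells beside them carried or lacked Phgdh. It used 13 of the 16 RNA sequencing libraries, and every gene was a member by definition, without any choice on its values. Of the 54532 genes in the table, the 11395 with a mean of at least 1 FPKM (fragments per kilobase of gene, scaled to the size of the library) over the 16 libraries were tested. Hepatocytes were cultured beside wild-type cancer cells (n = 3), beside Phgdh knockout cancer cells (n = 3), beside wild-type cells with the inhibitor (n = 3), or beside knockout cells with the inhibitor (n = 4). The other 3 libraries, of hepatocytes cultured alone, entered only the estimate of the spread and the mean that decided which genes were tested. All hepatocytes are labelled as a cell line and none as edited, so the labels place the Phgdh deletion in the neighbouring cancer cells and not in the hepatocytes. How the cell types were kept apart or separated before extraction is not stated. The labels name no inhibitor compound, dose, duration, vehicle, number of knockout clones or batch, and no group had the inhibitor without cancer cells. The series' design text describes cancer cells of the line HY19636 as the sequenced material, which conflicts with the labels, and the labels were followed. Whether replicates came from separate cultures is not stated, and the p-values therefore cover no more than the spread seen among libraries of a group. In bulk RNA, fewer cells of a type and less RNA per cell cannot be told apart.

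CXCR2 is a receptor on the cell surface for the chemokines CXCL1, CXCL2 and CXCL5, best known for drawing neutrophils into tissue. PHGDH catalyses the first step of serine synthesis from glucose, so cells that lack it depend on serine from outside, and the series concerns serine that hepatocytes supply to pancreatic cancer cells in the liver. Immediate early genes, among them Fos, Jun and Egr1, encode mostly transcription factors and are transcribed within minutes of a signal from growth factors, cytokines or stress, with no new protein needed. The FOS, JUN and ATF3 proteins belong to a family that binds DNA in pairs and adjusts later gene expression.

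Several of the genes with the largest differences belonged to this class, so the promoters of 3 of them and of Atf3, whose window holds the same short motif, are shown here. Sequences were taken from RefSeq for GRCm38.p6, each from 250 bases before to 50 after a start site, and 5 of the 7 called immediate early genes had an entry. Capitals mark TGACG on either strand (CGTCA when read on the strand printed), the core motif of the cyclic AMP response element TGACGTCA, and the TATA box TATAAA. This core motif lies inside the full element. Among all 32851 promoters of the table, 20.8% held the core motif, 1.79% the full element and 13.6% the TATA box. The Fos promoter (chr12:85473640-85473939, plus strand) held the core motif 129 and 66 bases upstream of the start and a TATA box 33 bases upstream. The Fosb promoter (chr7:19309996-19310295, minus strand) held the core motif 60 bases upstream. The Btg2 promoter (chr1:134079106-134079405, minus strand) held the full element 166 bases upstream. The only Atf3 entry (chr1:191183284-191183583, minus strand) lies inside the span of the gene and held the core motif 7 bases upstream.
Fos: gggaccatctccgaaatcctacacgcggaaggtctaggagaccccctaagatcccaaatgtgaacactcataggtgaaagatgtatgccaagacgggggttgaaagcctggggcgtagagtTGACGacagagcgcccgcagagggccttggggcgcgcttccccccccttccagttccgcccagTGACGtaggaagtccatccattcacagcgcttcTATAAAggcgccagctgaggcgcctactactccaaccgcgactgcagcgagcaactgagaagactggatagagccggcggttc
Fosb: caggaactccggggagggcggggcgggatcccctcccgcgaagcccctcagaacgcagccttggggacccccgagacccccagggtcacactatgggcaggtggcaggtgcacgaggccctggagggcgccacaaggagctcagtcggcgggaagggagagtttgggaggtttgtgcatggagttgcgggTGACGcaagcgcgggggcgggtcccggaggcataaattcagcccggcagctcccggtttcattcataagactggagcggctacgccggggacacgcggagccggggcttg
Btg2: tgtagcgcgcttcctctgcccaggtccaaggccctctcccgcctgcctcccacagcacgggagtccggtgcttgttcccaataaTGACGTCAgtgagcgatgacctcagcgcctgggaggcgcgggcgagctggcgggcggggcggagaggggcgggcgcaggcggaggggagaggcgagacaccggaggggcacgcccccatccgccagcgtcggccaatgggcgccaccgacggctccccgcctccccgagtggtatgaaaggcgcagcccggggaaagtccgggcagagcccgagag
Atf3: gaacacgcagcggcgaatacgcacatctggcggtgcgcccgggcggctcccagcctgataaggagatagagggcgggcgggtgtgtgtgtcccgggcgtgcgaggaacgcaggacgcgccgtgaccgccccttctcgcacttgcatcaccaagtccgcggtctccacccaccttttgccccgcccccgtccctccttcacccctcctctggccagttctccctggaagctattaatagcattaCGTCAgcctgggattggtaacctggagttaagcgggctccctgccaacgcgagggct
The core motif was present in at least 1 promoter of 3 of the 5 called immediate early genes with an entry and of 9 of the 16 tested ones, against 37.3% of the 8319 tested genes with an entry. Among all called genes with an entry the share was 27.1% (13 of 48) for those higher beside knockout cells and 25% (6 of 24) for those lower. The promoter of Jun held none of these letters, nor the AP-1 site TGANTCA, which stood in 7.81% of all promoters. A match describes letters in this window, and the absence of one says nothing about binding.

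The effect of the inhibitor was wide beside either cancer cell genotype, and only a small share of genes differed between the genotypes. Beside wild-type cells, 7584 genes changed with the inhibitor (66.6% of those tested), and beside knockout cells 7916 did (69.5%), by limma at a Benjamini-Hochberg adjusted p below 0.05. Across the 11395 genes, which are not independent replicates, the effects of both co-cultures had a correlation of 0.962 and a slope of 0.976, as a description of measurements normalised together. The interaction is the inhibitor effect beside knockout cells minus that beside wild-type cells, on the scale of log2(FPKM + 1). It passed the test for 93 genes (0.816%), 61 higher (0.535%) and 32 lower (0.281%) beside knockout cells. With libraries scaled without mitochondrial genes and the 50 most abundant genes the split was 51 higher and 15 lower. The 95% interval of the interaction lay within 0.5 of zero for 9191 genes (80.7%) and within 1 for 10874 genes (95.4%). The median standard error was 0.102, and the smallest difference that passed was 0.209 in size. At an unadjusted p below 0.05 there were 1239 genes. The highest value, 2.58 (adjusted p = 0.0463), belonged to the microRNA gene Mir7669, the 1 called gene that is not protein coding. It lies inside Ubap2l on the same strand, so reads of both genes cannot be told apart, and it passed in 2 of 13 fits that each left out 1 library.

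Egr1, a zinc finger transcription factor, was the gene with the smallest adjusted p, and its response ran in opposite directions. Beside wild-type cells it stood at 71.3, 72.8 and 72.1 FPKM, and at 44.9, 43.0 and 46.0 with the inhibitor. With knockout neighbours Egr1 stood at 36.9, 38.3 and 39.8 FPKM, and at 54.8, 54.5, 55.5 and 55.0 with the inhibitor. No library of a group overlapped those of another, and the order of wild type and knockout turned over once the inhibitor was present. The inhibitor effect was -0.68 with wild-type and 0.51 with knockout neighbours, both past the threshold. The interaction was 1.19 ± 0.05 (SE; limma, adjusted p = 4.92e-09), and it stayed between 1.16 and 1.21 in 13 fits that each left out 1 library.

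Jun and Btg2 also changed order between the genotypes. Jun, a subunit of the AP-1 transcription factor, measured 17.3, 20.3 and 18.9 FPKM beside wild-type cells and 20.3, 22.1 and 20.9 with the inhibitor. With knockout neighbours it measured 14.3, 15.1 and 14.2 FPKM and then 33.3, 32.2, 32.9 and 30.7. The inhibitor effect was 0.16 against 1.10, a difference of 0.93 ± 0.07 (limma, adjusted p = 1.46e-05). The knockout libraries were thus the lowest without the inhibitor and the highest with it. Btg2, an antiproliferative factor, read 17.1, 15.3 and 15.4 FPKM beside wild-type cells and 14.9, 14.7 and 14.97 with the inhibitor. Beside knockout cells it read 11.7, 11.9 and 11.9 FPKM and then 20.9, 19.1, 22.8 and 20.0, again below and then above all wild-type libraries. Its interaction was 0.85 ± 0.08 (limma, adjusted p = 0.000108), with an effect of 0.75 beside knockout cells and of -0.09, which missed the threshold, beside wild-type cells.

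Fos, Fosb and Ier2 fell with the inhibitor in both co-cultures, and by less beside knockout cells. Fos, the partner of Jun in AP-1, went from 28.3, 30.1 and 31.8 FPKM to 1.64, 1.82 and 1.82 beside wild-type cells. The corresponding Fos values beside knockout cells went from 20.7, 20.2 and 21.6 FPKM to 2.21, 2.19, 2.98 and 3.12. The falls were 3.49 and 2.60 on the log2 scale and differed by 0.89 ± 0.12 (limma, adjusted p = 0.00275). The knockout libraries lay below the wild-type ones without the inhibitor and above them with it. Fosb, a further AP-1 subunit, fell from 3.46, 4.88 and 3.97 FPKM to 0.0638, 0.143 and 0.0519 beside wild-type cells. Beside knockout cells it fell from 1.34, 1.25 and 1.10 FPKM to 0.110, 0.161, 0.125 and 0.0386. With the inhibitor both genotypes overlapped at very low values, and without it they differed by -1.19. The interaction was 1.22 ± 0.12 (limma, adjusted p = 0.000225). With a pseudocount of 0.1 the value was 1.81 (adjusted p = 0.0268), and with voom, which models the recovered whole fragments, 2.05 (adjusted p = 0.185), so that the call was lost there. Ier2, a nuclear immediate early protein, fell by 0.97 beside wild-type and by 0.42 beside knockout cells, with an interaction of 0.54 ± 0.09 (limma, adjusted p = 0.0103). Its libraries read 81.2 to 84.3 FPKM with wild-type and 52.3 to 62.3 with knockout neighbours, and 39.9 to 45.2 in all 7 libraries with the inhibitor.

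**Figure D1:**
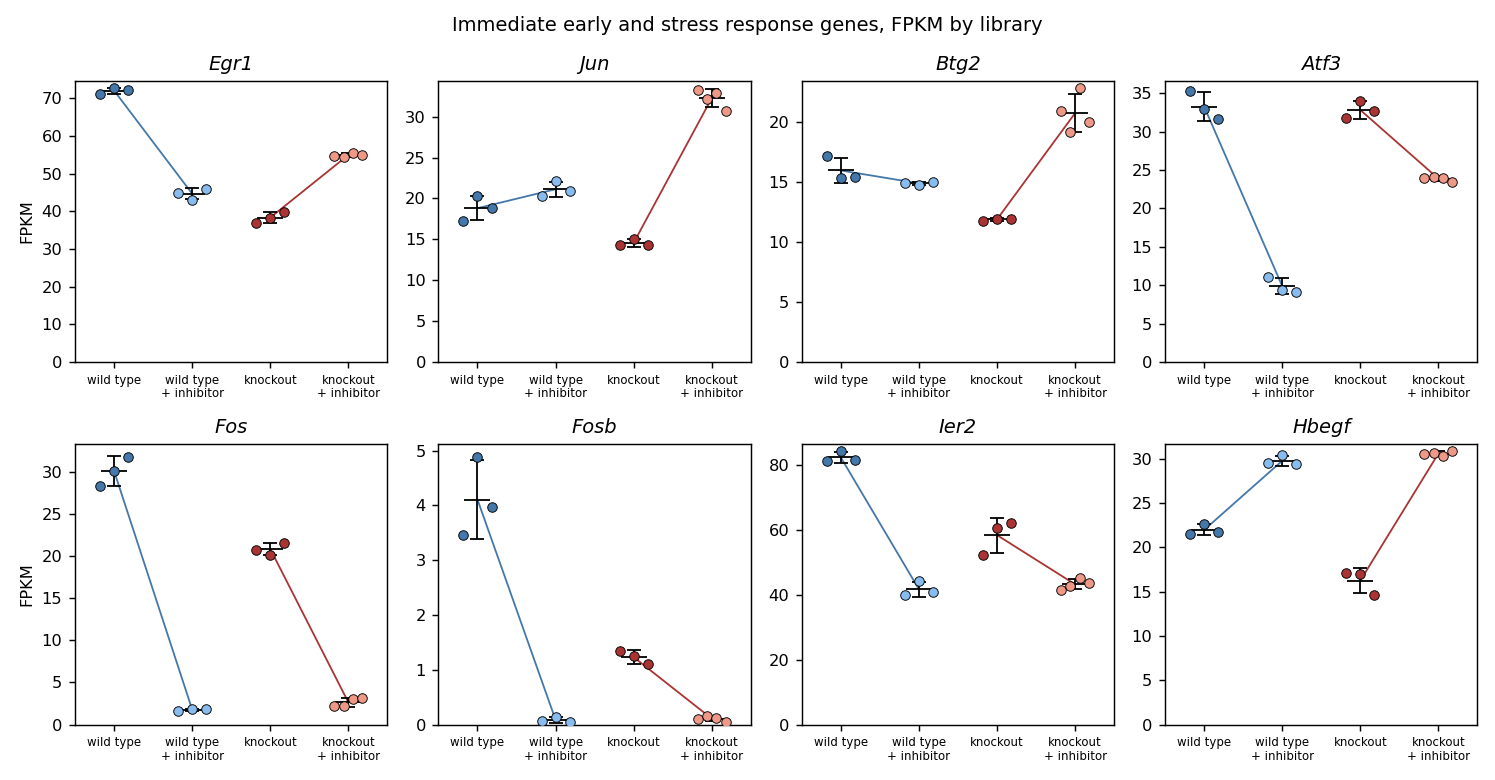
FPKM by library for 8 genes (vertical axes, linear from 0), with 1 point for each library in the 4 co-culture groups, horizontal bars for the mean, error bars for the SD and a line joining the group means of each genotype (n = 4 in the knockout group with inhibitor, otherwise 3). The lines slope in opposite directions for Egr1, where wild-type libraries lie at 71.3 FPKM or more without and at most at 46.0 with the inhibitor and knockout libraries go from at most 39.8 to at least 54.5, and knockout libraries of Jun end at 30.7 to 33.3 FPKM against 20.3 to 22.1.

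Of 26 listed immediate early genes 21 were tested, the other 5 being too low, and 7 passed with a higher value beside knockout cells (0.535% of all tested genes did) and none with a lower one. The seventh was Ier3, a stress-inducible survival factor, with opposite effects of -0.22 beside wild-type and 0.14 beside knockout cells, both past the threshold, and an interaction of 0.36 ± 0.08 (limma, adjusted p = 0.0463). It passed in 3 of the 13 fits without 1 library, where its adjusted p reached 0.115. The median interaction over the 21 genes was 0.324, against -0.00512 over all tested genes. In the list 20 of the 21 values were above 0, against 5483 of 11395 over all tested genes. Over 28 alternative settings between 6 and 13 genes of the list passed. Among those that missed the threshold, Zfp36, which promotes decay of cytokine mRNAs, had 0.54 (adjusted p = 0.0564), and the nuclear receptor Nr4a1 had 0.58 (adjusted p = 0.0688). Jund had 0.61 with wide libraries (39.4, 66.7 and 50.9 FPKM beside wild-type cells without the inhibitor) and an adjusted p of 0.226. Other members showed small values with narrow intervals: Myc had 0.06 (95% interval -0.033 to 0.150) and Fosl2 had 0.01 (-0.135 to 0.153), although Fosl2 itself rose by 1.22 and 1.23 with the inhibitor. The list was chosen with earlier results of these data known, so its count describes these libraries only.

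Dusp6, Hbegf and Epha2, which respond to or carry growth factor signals, were also among the 93. Dusp6, a phosphatase that switches off ERK and is induced by it, rose by 0.82 beside wild-type cells, from 38.9 to 41.9 FPKM to 69.8 to 75.5. Beside knockout cells it rose by 1.21, from 34.8 to 35.4 FPKM to 81.4 to 84.0, so it started lower and ended higher without overlap. The interaction was 0.39 ± 0.05 (limma, adjusted p = 0.00207). It was the only one of 17 tested MAPK feedback inhibitors to pass, beside 0.535% higher over all tested genes, and the median of that list was 0.139. Hbegf, a ligand of the EGF receptor, rose from 21.5, 22.7 and 21.7 to 29.5, 30.4 and 29.4 FPKM beside wild-type cells, and from 17.1, 17.0 and 14.6 to 30.6, 30.6, 30.3 and 30.9 beside knockout cells. The knockout libraries were the lowest without the inhibitor and overlapped the wild-type ones with it, and the interaction was 0.45 ± 0.07 (limma, adjusted p = 0.00587). Hbegf was the 1 gene of 8 tested EGF family ligands and ERBB receptors that passed, beside 0.535% higher over all tested genes. The median of its list was 0.0547. Epha2, an ephrin receptor tyrosine kinase, showed 49.0, 53.5 and 51.7 FPKM beside wild-type cells, and 38.2, 39.9 and 39.4 beside knockout cells, without the inhibitor. With it the values were 47.8, 49.0 and 47.6 against 48.5, 49.0, 53.8 and 51.1 FPKM, with an overlap between genotypes and an interaction of 0.45 ± 0.06 (limma, adjusted p = 0.00207).

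Stress response genes differed mainly through Atf3, a transcription factor induced by many stresses. Atf3 fell from 35.3, 32.9 and 31.6 FPKM to 11.1, 9.33 and 9.17 beside wild-type cells. Knockout co-cultures fell from 31.8, 34.0 and 32.8 FPKM only to 23.96, 24.09, 24.03 and 23.45. Without the inhibitor the genotypes overlapped (difference -0.02), and with it they stood apart by 1.20. The interaction was 1.22 ± 0.08 (limma, adjusted p = 4.30e-06). Gdf15, a secreted stress cytokine, rose by 0.51 beside knockout cells, while the value of -0.21 beside wild-type cells missed the threshold. Its interaction was 0.73 ± 0.14 (limma, adjusted p = 0.0361), and it passed in 3 of the 13 fits without 1 library, where its adjusted p reached 0.0969. Sesn2, a stress-inducible inhibitor of mTORC1, had an interaction of 0.29 (adjusted p = 0.0491) and passed in none of those fits. These were the 3 of 24 tested ATF4 and integrated stress response targets that passed, all higher, as did 0.535% of all tested genes. The median of that list was 0.0814, and Atf4 itself had 0.19 (adjusted p = 0.383).

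**Figure D2:**
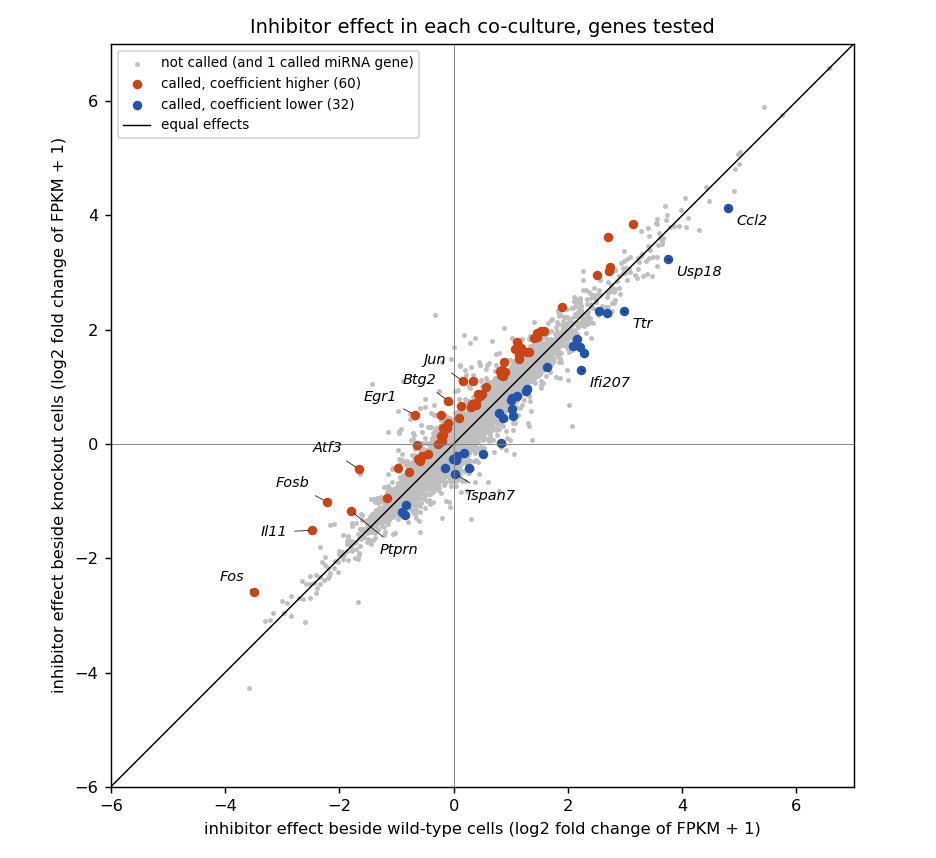
Inhibitor effect beside wild-type cells (horizontal axis) against that beside knockout cells (vertical axis), both as log2 fold changes of FPKM + 1, with 1 point for each of the 11395 tested genes, 60 protein-coding genes with a higher interaction in orange, 32 with a lower one in blue, and the line of equal effects. Genes follow the line closely, Egr1 and Btg2 lie in the upper left, where the effects have opposite signs, and Ccl2 and Ttr lie below the line among genes that rose in both co-cultures.

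The 61 genes with a higher interaction reached it in different ways, described here from the same libraries as the interaction itself. In 37 both estimates were upward and larger beside knockout cells, in 14 both were downward and larger beside wild-type cells, and in 10 they had opposite signs. Of the 32 lower genes, 21 had upward estimates that were larger beside wild-type cells, 5 had downward ones that were larger beside knockout cells, and 6 had opposite signs. The median difference was 0.447 among the higher and -0.352 among the lower genes, and 21 and 11 of them reached 0.5 in size. Effects of opposite sign were thus the smaller share in either direction. On plain FPKM differences, all 61 higher genes and 28 of the 32 lower genes kept their sign. The exceptions were Ccl2, Ttr, C3 and Xdh, which were higher beside knockout cells before the inhibitor and then rose by as many FPKM or more, but by a smaller ratio.

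Ccl2, a chemokine that attracts monocytes, is the clearest such case. It rose from 8.73, 9.92 and 10.02 FPKM to 288, 294 and 292 beside wild-type cells, and from 16.7, 16.2 and 15.5 FPKM to 300, 297, 312 and 288 beside knockout cells. The genotypes stood apart without the inhibitor and overlapped with it. The rises of 4.79 and 4.13 on the log2 scale differed by -0.66 ± 0.06 (limma, adjusted p = 1.18e-04), while in FPKM they were 282 and 283. Of 24 tested NF-kB targets and chemokines, Ccl2 was the 1 lower gene and Nfkbiz and Nfkbie the 2 higher ones, beside 0.281% lower and 0.535% higher over all tested genes, with a list median of 0.0508. Nfkbiz encodes a nuclear IkB protein and Nfkbie an inhibitor of NF-kB. Nfkbiz rose from 4.96 to 5.35 FPKM to 12.4 to 12.9 beside wild-type cells, and from 3.53 to 3.99 FPKM to 13.1 to 13.4 beside knockout cells, with an interaction of 0.41 ± 0.06 (limma, adjusted p = 0.00587). Nfkbie had 0.49 ± 0.09 (limma, adjusted p = 0.0216) and passed in 7 of the 13 fits without 1 library, where its adjusted p reached 0.0731.

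Among hepatocyte genes, Hnf4a, a transcription factor that defines the cell type, had an interaction of 0.37 ± 0.06 (limma, adjusted p = 0.0103). It read 46.7, 51.8 and 51.0 FPKM beside wild-type and 41.7, 42.5 and 38.8 beside knockout cells, and 68.3, 71.0 and 67.9 against 72.1, 74.8, 74.4 and 73.8 with the inhibitor, so the order turned over without overlap, though the gap of 0.09 with the inhibitor missed the threshold. It was the 1 gene of 18 tested hepatocyte transcription factors that passed, beside 0.535% higher over all tested genes. The list median was 0.147 with 16 values above 0, against 5483 of 11395 over all tested genes. Ttr, the plasma carrier of thyroxine and retinol, rose from 23.8, 25.1 and 22.9 FPKM to 193, 207 and 184 beside wild-type cells. In knockout co-cultures it rose from 47.1, 52.96 and 51.2 FPKM to 263, 271, 262 and 235, higher than wild type in either state. The rises of 2.97 and 2.33 differed by -0.64 ± 0.08 (limma, adjusted p = 0.00201), and in FPKM they were 171 and 207. Alb, serum albumin, missed the threshold at 0.27 (95% interval 0.105 to 0.434, adjusted p = 0.152). C3, the central complement component, had -0.21 ± 0.04 (adjusted p = 0.0366), and Hpx, which binds haem in plasma, had 0.33 ± 0.07 (adjusted p = 0.0478). Either passed in 1 of the 13 fits without 1 library, with adjusted p up to 0.105 and 0.132. The summed level of 10 hepatocyte markers moved with the groups, at 147 to 165 FPKM with wild-type and 173 to 186 with knockout neighbours, and at 791 to 807 and 1000 to 1070 with the inhibitor. The part of that in these results was not tested.

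Cyp2d26, a cytochrome P450, was almost silent without the inhibitor, at up to 0.344 FPKM in the 6 libraries. With it the gene reached 1.27 to 1.73 FPKM beside wild-type and 2.82 to 3.62 FPKM beside knockout cells, without overlap. Its mean over the 16 libraries was 1.135 FPKM, against the 1 FPKM needed for testing. Cyp2d26 thus entered the test only through libraries with the inhibitor, mainly those beside knockout cells, at a mean of 3.08 FPKM. Its interaction, drawn from the same values that let it in, was 0.67 ± 0.14 (limma, adjusted p = 0.0468). It missed the threshold at a pseudocount of 0.1 (0.82, adjusted p = 0.553) and under voom (0.76, adjusted p = 0.77), and it passed in 2 of the 13 fits without 1 library. The difference between genotypes with the inhibitor was 0.74 (limma, adjusted p = 0.00118), from the same values and thus no separate support.

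Ahnak, a giant scaffold protein of the cell cortex, led the lower genes by adjusted p. It rose from 46.2, 43.9 and 46.4 FPKM to 94.1, 94.0 and 94.0 beside wild-type cells, and from 58.2, 57.4 and 58.1 FPKM to 82.7, 82.6, 81.2 and 82.2 beside knockout cells. The knockout libraries lay above the wild-type ones without the inhibitor and below them with it. The interaction was -0.53 ± 0.05 (limma, adjusted p = 4.45e-05). Pmepa1, a negative regulator of TGF-beta signalling, overlapped between genotypes without the inhibitor, at 13.01, 13.7 and 13.98 FPKM beside wild-type against 12.8, 13.9 and 13.8 beside knockout cells. With it the values were 24.6, 26.4 and 25.3 against 19.7, 18.7, 18.7 and 18.8 FPKM, without overlap, and the interaction was -0.40 ± 0.06 (limma, adjusted p = 0.00572). Ifi207, an interferon-inducible gene of the p200 family, followed that form at 1.85 to 2.81 and 2.31 to 3.17 FPKM without the inhibitor and 12.9 to 14.6 against 7.73 to 8.89 FPKM with it. Its interaction, -0.94 ± 0.15 (limma, adjusted p = 0.0103), was the most negative of the 32.

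Tspan7 and Cd63, both tetraspanin membrane proteins, were also among the lower genes. Tspan7 read 10.9, 9.93 and 9.20 FPKM beside wild-type cells and 10.8, 9.95 and 9.97 with the inhibitor. Beside knockout cells it fell by 0.52, from 13.2, 12.5 and 13.3 FPKM to 8.23, 8.91, 9.15 and 8.78, and the interaction was -0.55 ± 0.08 (limma, adjusted p = 0.00378). The knockout libraries were the highest without the inhibitor and the lowest with it. Cd63 fell in both co-cultures, by 0.85 and 1.25, with an interaction of -0.41 ± 0.06 (limma, adjusted p = 0.00587). Xdh, xanthine dehydrogenase, rose in both, by 2.69 and 2.30, with an interaction of -0.39 ± 0.06 (limma, adjusted p = 0.00508). Adcy9, an adenylyl cyclase, had effects of 0.26 beside wild-type and -0.42 beside knockout cells, both past the threshold. Its interaction of -0.68 ± 0.14 (limma, adjusted p = 0.0463) passed in 1 of the 13 fits without 1 library. Lmcd1, a LIM domain cofactor, had -0.70 ± 0.14 (adjusted p = 0.0402) and passed in 4 of them, and the collagenase Mmp13 had -0.82 ± 0.17 (adjusted p = 0.0463) and passed in none.

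**Figure D3:**
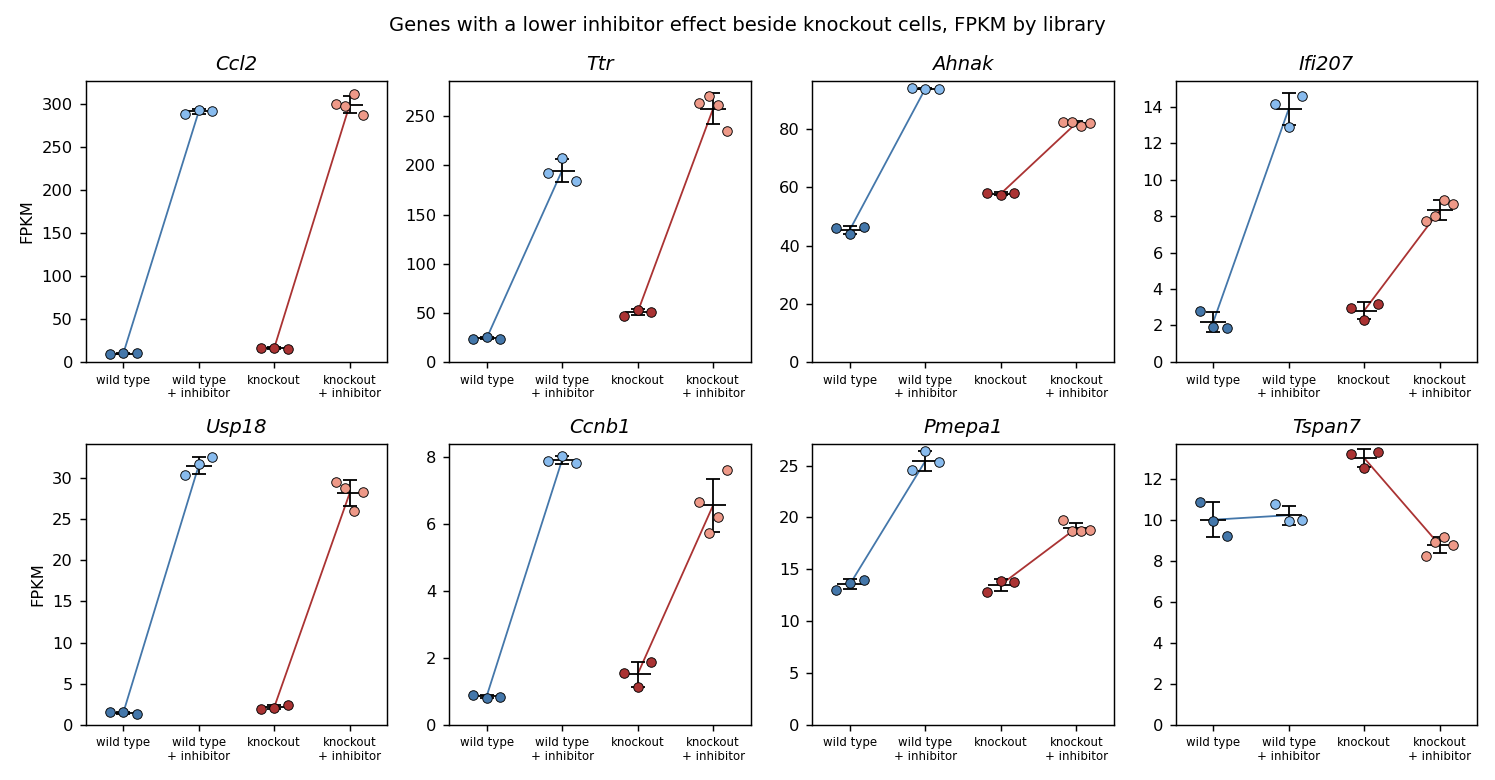
FPKM by library for 8 genes with a lower inhibitor effect beside knockout cells (vertical axes, linear from 0), drawn as 1 point for each library with the mean, the SD and a line joining the group means of each genotype (n = 4 in the knockout group with inhibitor, otherwise 3). Ahnak starts higher and ends lower beside knockout cells, Pmepa1 and Ifi207 separate only with the inhibitor, and Ccl2 reaches 288 to 312 FPKM in all 7 libraries with the inhibitor.

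Most cell cycle and interferon genes rose with the inhibitor in both co-cultures and had interaction values below 0. Those that passed are given beside the share over all tested genes. All 33 genes listed for DNA replication and mitosis were tested, 4 passed with a lower value (0.281% of all tested genes did) and none with a higher one. In each co-culture 32 of the 33 rose with the inhibitor, by a median of 1.63 beside wild-type and 1.43 beside knockout cells. Of all 11395 tested genes, 3821 and 3962 rose in these co-cultures. The list median of the interaction was -0.234 against -0.00512 over all genes, with 32 of 33 values below 0 against 5912 of 11395. The 4 were Ccnb1, the mitotic cyclin B, at -0.68 ± 0.14 (limma, adjusted p = 0.0468), Rrm2, a subunit of ribonucleotide reductase, at -0.52 ± 0.10 (0.0288), Mcm3, of the replicative helicase, at -0.33 ± 0.06 (0.0288), and the topoisomerase Top2a at -0.31 ± 0.07 (0.0463). Rrm2 rose from 1.46, 1.64 and 1.55 FPKM to 10.55, 12.01 and 10.03 beside wild-type cells and from 2.38, 2.50 and 2.08 FPKM to 9.39, 9.89, 9.19 and 10.5 beside knockout cells. It started higher beside knockout cells without overlap and overlapped with the inhibitor. Of these 4, Rrm2 passed in 5, Mcm3 in 4, Ccnb1 in 2 and Top2a in none of the 13 fits without 1 library, with adjusted p up to 0.0874, 0.0751, 0.122 and 0.132. Over 28 alternative settings between 0 and 9 genes of the list passed, and its median stayed between -0.267 and -0.211.

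Interferon-stimulated genes had a median interaction of -0.196 over 39 tested genes, 33 of them below 0, and all 39 rose with the inhibitor in either co-culture. Over all 11395 tested genes, 5912 values were below 0, and 3821 genes rose beside wild-type and 3962 beside knockout cells. Usp18, which removes the ubiquitin-like ISG15 from proteins, and Irgm1, an interferon-induced GTPase, were the 2 that passed, both lower (0.281% of all tested genes), and none passed with a higher value. Usp18 rose from 1.51, 1.48 and 1.30 FPKM to 30.4, 31.7 and 32.6 beside wild-type cells, and from 1.91, 2.02 and 2.42 FPKM to 29.6, 28.9, 26.0 and 28.4 beside knockout cells. Its rises of 3.75 and 3.23 differed by -0.51 ± 0.11 (limma, adjusted p = 0.0463), the knockout libraries being above the wild-type ones without the inhibitor and below them with it, where the gap of -0.16 missed the threshold. Irgm1 had -0.33 ± 0.07 (limma, adjusted p = 0.0399). They passed in 1 and 3 of the 13 fits without 1 library, with adjusted p up to 0.128 and 0.105. Isg15 had -0.54 but spread libraries and an adjusted p of 0.343. Of 13 genes of MHC class I presentation none passed, beside 0.816% of all tested genes. Their median was -0.108, with 12 values below 0 against 5912 of 11395 over all tested genes.

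**Figure D4:**
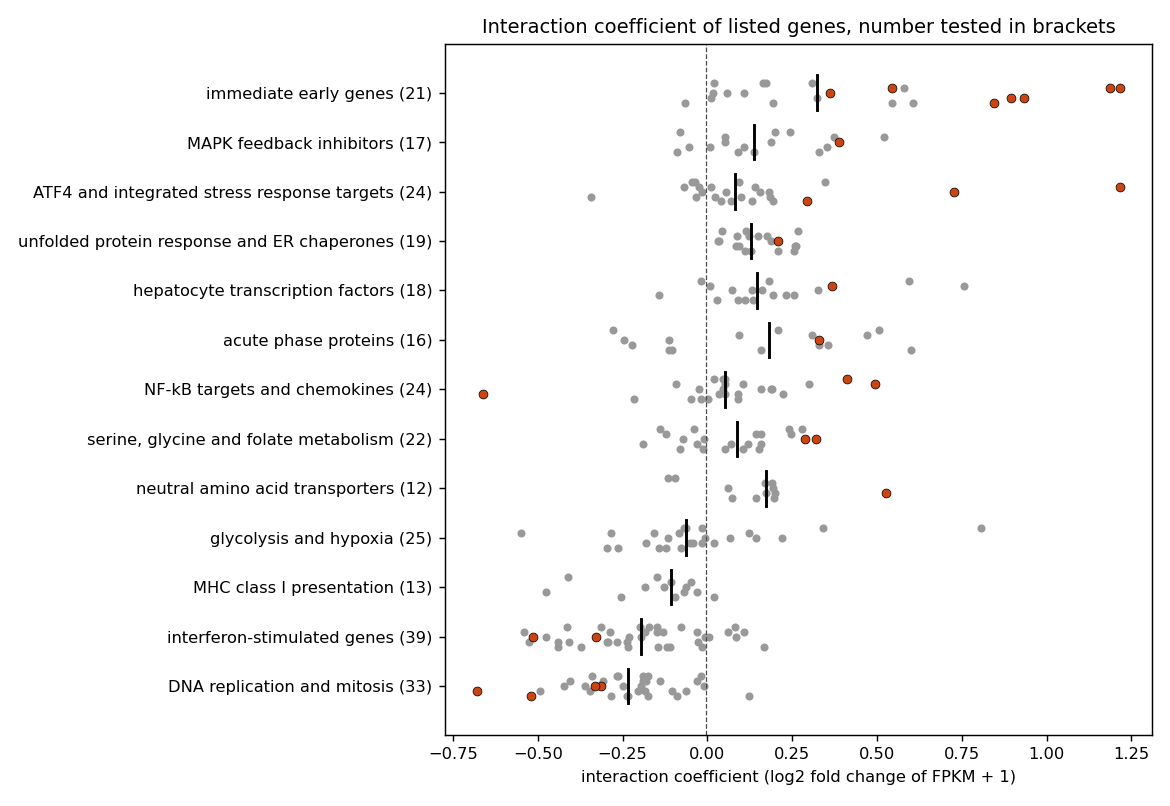
Interaction value (horizontal axis, log2 fold change of FPKM + 1) of each tested gene in 13 gene lists, with genes past the threshold in orange, others in grey, black bars for list medians and a dashed line for the median over all tested genes, -0.00512. Of the lists drawn, immediate early genes have the highest median, 0.324, and DNA replication and mitosis the lowest, -0.234.

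None of the 3 tested genes of the serine synthesis pathway passed, beside 0.816% of all tested genes. Phgdh in the hepatocytes stood at 195 to 206 FPKM with wild-type and 194 to 201 with knockout neighbours, and at 155 to 160 and 146 to 157 with the inhibitor, with an interaction of -0.03 (95% interval -0.136 to 0.076). The labels place the deletion in the cancer cells, so these levels do not check it. Psat1, the next enzyme, had 0.12 (-0.023 to 0.262), and Psph, the last, 0.03 (-0.157 to 0.211). Effects of the size seen for Egr1 lie outside all 3 intervals. Shmt1 and Shmt2, which convert serine to glycine in the cytosol and in mitochondria, had 0.28 (0.090 to 0.466, adjusted p = 0.212) and 0.11 (-0.087 to 0.298). Of 22 tested genes of serine, glycine and folate metabolism 2 passed, both higher (0.535% of all tested genes), with a median of 0.0875. They were Ahcy, which clears S-adenosylhomocysteine, at 0.29 ± 0.06 (limma, adjusted p = 0.0463), and Sardh, which oxidises sarcosine to glycine, at 0.32 ± 0.06 (adjusted p = 0.038). Ahcy reached 147 to 151 FPKM with the inhibitor beside wild-type and 170 to 191 beside knockout cells, from 57.0 to 62.1 in all 6 libraries without it. They passed in 2 and 4 of the 13 fits without 1 library, with adjusted p up to 0.126 and 0.108. Slc38a3, a transporter of glutamine and other neutral amino acids, was the 1 gene of 12 such transporters that passed, beside 0.535% higher over all tested genes. It had 0.53 ± 0.10 (limma, adjusted p = 0.0361) and passed in 3 of those fits.

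The receptor that the inhibitor targets was hardly present. All libraries list Cxcr1 at 0, and Cxcr2 is likewise at 0 except for 0.0727 FPKM in 1 library beside knockout cells and 0.0373 in 1 beside wild-type cells with the inhibitor. Its ligands showed no interaction past the threshold, which 0.816% of all tested genes passed. Cxcl1 rose from 1.88 to 2.38 FPKM to 8.08 to 8.91 beside wild-type cells and from 2.00 to 2.65 FPKM to 9.78 to 13.5 beside knockout cells, with an interaction of 0.36 (95% interval 0.060 to 0.657, adjusted p = 0.346). Cxcl2 had 0.23 (-0.086 to 0.538), Cxcl5 0.06 (-0.265 to 0.381) and Mif, a cytokine that also binds CXCR2, -0.19 (-0.378 to 0.007). These intervals leave room for differences of about the size seen in several genes that passed.

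Further lists and genes are given here with their values. In the unfolded protein response, 19 of 19 tested genes had interaction values above 0, against 5483 of 11395 over all tested genes. The list median was 0.128, but only Pdia4, a disulfide isomerase, passed, at 0.21 ± 0.04 (limma, adjusted p = 0.038), beside 0.535% higher over all tested genes. It passed in 2 of the 13 fits without 1 library. The chaperone Hspa5 had 0.18 (adjusted p = 0.213) and the co-factor Herpud1 0.26 (adjusted p = 0.0855). Cyr61, a matrix protein induced by YAP, rose from 9.80 to 11.4 FPKM to 63.2 to 65.1 beside wild-type cells and from 8.87 to 10.01 FPKM to 77.1 to 84.4 beside knockout cells, with an interaction of 0.45 ± 0.07 (limma, adjusted p = 0.0103). It was 1 of 2 that passed, both higher (0.535% of all tested genes), among 16 tested YAP and TEAD targets, whose median was -0.0059. Ptprn, a membrane protein of secretory granules, fell from 47.3 to 52.7 FPKM to 13.3 to 13.7 beside wild-type cells and from 24.9 to 26.3 FPKM to 10.1 to 11.6 beside knockout cells, with an interaction of 0.62 ± 0.07 (limma, adjusted p = 0.00127). Il11, a cytokine of the interleukin 6 family, fell from 5.83 to 7.865 FPKM to 0.254 to 0.547 beside wild-type cells. Beside knockout cells it fell from 3.89 to 4.685 FPKM to 0.509 to 1.25, so the genotypes overlapped at low values with the inhibitor. Its interaction of 0.96 ± 0.20 (limma, adjusted p = 0.042) missed the threshold at pseudocounts of 0.1 and 0.5 and under voom. It passed in 3 of the 13 fits without 1 library. Sprr1a, a cornified envelope protein, had 0.91 ± 0.19 (adjusted p = 0.0461) and passed in 2 of them. Lmntd2, which overlaps Lrrc56 on the other strand, had 0.77 ± 0.11 (adjusted p = 0.00587) and passed in all 13. Of the 34 pathway lists 23 had at least 1 called gene, and 39 of the 93 genes stood in a list. The share of all tested genes that stood in a list was not counted, and the lists were chosen with earlier results known. Neither count can therefore be read as many or few. None passed in glycolysis and hypoxia (25 tested, median -0.0636), in lipogenesis and lipid storage (19 tested) or among the 15 mitochondrially encoded genes. Over all tested genes 0.816% passed, so these counts cannot be read as few.

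The gap between knockout and wild type passed the test for 341 genes without the inhibitor (2.99%; 188 higher and 153 lower) and for 263 with it (2.31%). With libraries scaled without mitochondrial genes and the 50 most abundant genes, the split without the inhibitor was 116 higher and 149 lower. These share libraries with the interaction and are given for its members side by side. For Egr1 the gap was -0.89 without and 0.29 with the inhibitor, for Jun -0.35 and 0.59, for Btg2 -0.40 and 0.45, and for Fos -0.51 and 0.39, and all 8 passed. For Ahnak it was 0.34 and -0.19, and both passed. For Fosb it was -1.19 and 0.03, for Ccl2 0.70 and 0.04 and for Hbegf -0.42 and 0.04, where only the gap without the inhibitor passed. For Atf3 it was -0.02 and 1.20 and for Pmepa1 -0.01 and -0.40, where only the gap with the inhibitor did.

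The libraries held 15001948 to 21266170 recovered fragments, and 1 fragment in a gene of 1 kb was worth 0.0457 to 0.0648 FPKM. Over the 13 libraries the first principal component, 83.4% of the variance, separated those with the inhibitor from those without, and the second, 4.27%, set the first wild-type library apart. That library also had the highest share of mitochondrial transcripts, 4.57% of fragments against 3.25% to 3.80% in the other 5 without the inhibitor. Without it 120 genes passed the interaction, and without 1 of the other 12 libraries 31 to 60 did. Of the 93 genes, 29 passed in all 13 of these fits and 23 in all 28 alternatives, among them Egr1, Jun, Btg2, Fos, Ier2, Atf3, Dusp6, Hbegf, Epha2, Nfkbiz, Hnf4a, Cyr61, Ptprn, Ccl2, Ttr, Ahnak, Pmepa1, Ifi207, Tspan7, Cd63 and Xdh. Among the 28, scaling by the median ratio repeated the main fit and is no separate check. Of 10 hepatocyte markers none was at 0 in any of the 13 libraries, but their levels were uneven. Alb (22.5 to 475 FPKM), Ttr, Trf and Hnf4a were at 22.5 FPKM or more throughout, while Apoa1 ranged from 0.151 to 101, Cps1 from 0.0782 to 18.3, Fgb from 0.978 to 24.3 and Apoa2 from 0.183 to 1.79 FPKM. Listed markers of stellate, endothelial and neutrophil lineages were below 1 FPKM in every library, and of 11 macrophage markers 9 were, with Vsig4, C1qa, C1qb, Clec4f, Timd4 and Adgre1 at 0. The other 2 macrophage markers were Cd14, at 43.1 to 105 FPKM, and Cd68, at 0.901 to 5.67 FPKM. Of 14 markers of pancreatic cancer epithelium 7 were below 1 FPKM, with Agr2 and Tff1 at 0. Others on that list were abundant, with Msln at 170 to 421, Cdh1 at 94.1 to 118, Sox9 at 40.3 to 68.4, Krt19 at 18 to 206 and Onecut2 at 16.7 to 25.8 FPKM. The markers thus do not settle the conflict between the labels and the design text. The summed level of the list was 367 to 386 FPKM with wild-type and 372 to 380 with knockout neighbours, and 780 to 825 and 762 to 789 with the inhibitor, against 478 to 490 in hepatocytes alone. None of the 7 tested genes of that list passed the interaction, beside 0.816% of all tested genes.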

How the data were processed

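The labels' protocols name the RNeasy mini kit for extraction and Novogene for sequencing. Alignment was to GRCm38 (mm10) with HISAT2, per the submitters' processing notes; for the counting tool, annotation and strand setting, nothing was given in the sources used here. Made by the authors, the deposited table holds FPKM values per gene and library, normalised to gene length and to a factor for each library. Steps of 1 fragment were recovered from the table, and 100% of values lay within 0.1 of a whole fragment. The fragments of a library summed to 0.970 to 1.028 times its factor, so that factor was not the plain library total. Scaling factors computed here from the median ratio between libraries were 1 in all 16, so the values were already centred on the median gene.

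The values were analysed as log2(FPKM + 1) with limma 3.58.1 in R 4.3.3, as group means over all 16 libraries with a mean-dependent prior on the spread and 11 residual degrees of freedom. Genes with a mean of at least 1 FPKM were kept, and p-values were adjusted over 11395 genes with a threshold of 0.05. The procedure was tested on simulated data. A fold change on this scale understates the change of low genes. Intervals are 95% intervals of the fit. For libraries of different groups with the same replicate number, correlations of deviations ran from -0.300 to 0.270 over 18 pairs, with a median of 0.071. Pairs with different numbers were not compared, so whether the numbers pair libraries was not tested. Depth limits low genes most.

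Genes named are the 15 protein-coding genes called with the highest and the 15 with the lowest values, up to 4 called genes of each list or its member with the smallest p, and 12 genes of serine synthesis, CXCR2 and its ligands, Ccl2 and Alb. Others were named after their values were seen. Members and lists were chosen with earlier results of these data known. Alternatives changed the pseudocount, filter, scaling, model and libraries. Promoters came from RefSeq (GRCm38.p6), and 8319 of 11392 tested symbols had an entry. Some genes are not reported here.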

Additional observations from a re-analysis of the deposited data

Results flagged for a closer look

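The inhibitor effect differed between the cancer cell genotypes by the interaction test for 93 genes, which is the difference between groups itself. In 7 of them the inhibitor effect passed the test in both co-cultures with opposite signs. The interaction was 1.19 for Egr1, 0.36 for Ier3, 0.45 for Ltbp4, a protein that binds latent TGF-beta, and 0.40 for Zfp57, an imprinting factor. It was 0.35 for AC149090.1, -0.34 for the acetyltransferase Kat5, which overlaps Rnaseh2c on the other strand, and -0.68 for Adcy9. Egr1 and Zfp57 passed in all 13 fits without 1 library, AC149090.1 in 9, Ltbp4 in 5, Kat5 in 4, Ier3 in 3 and Adcy9 in 1.

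Pmepa1 stood at 19.7 FPKM in the first library beside knockout cells with the inhibitor, apart from the other 3 of its group at 18.7, 18.7 and 18.8. The gap was 0.844 of the group's range. The rule marks about 1 group in 20 by chance, and the library lies below all wild-type libraries with the inhibitor, which start at 24.6 FPKM.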

How the results depend on the processing

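The count of 93 depended on the fit. With no filter on low values 55 genes passed, and with the 13 co-culture libraries alone 40 did. A replicate block gave 34 genes (33 of them among the 93), where numbers pair nothing in the labels. Replicate 4 exists only in the inhibitor-treated knockout group, so the block also sets that library aside. Leaving out only that library gave 47 genes. With the mitochondrial share as a covariate, chosen after seeing the data, 361 passed (192 higher, 169 lower), all 93 included, and the gaps between genotypes passed for 899 genes without and 547 with the inhibitor. Leaving out 1 library gave 31 (without knockout replicate 1) to 120 genes (without wild-type replicate 1) for the interaction, 157 to 398 for the gap without the inhibitor and 123 to 371 for that with it. Without wild-type replicate 1 and inhibitor-treated knockout replicate 4, a pair chosen after seeing the data, 410 genes passed for the gap without the inhibitor and 130 for the interaction. The other alternatives kept the count within 1.5 times, from 66 with the scaling that leaves out abundant genes to 96 with voom. Scaling by the median ratio gave 93 again, because its factors were 1 in all libraries. No gene called in the interaction changed sign under any alternative. The inhibitor effects themselves moved with the mitochondrial covariate. They passed for 5765 genes beside wild-type and 5930 beside knockout cells. Of the calls shared with the main fit, 4278 of 4446 and 4581 of 4740 kept their sign. The mitochondrial share was 1.86% to 2.11% of fragments with the inhibitor and 3.25% to 4.57% in co-cultures without it, so the covariate overlaps with the inhibitor. Of 72 named genes, 51 of them past the threshold, 430 values lost the call, 8 gained it, and 6 changed sign, all uncalled. Krt19, at -0.09, ranged from -0.210 to 0.0418 without 1 library (0.0135 without knockout replicate 2) and was 0.0631 without wild-type replicate 1 and inhibitor-treated knockout replicate 4. Cxcl5, at 0.06, ranged from -0.0873 (without wild-type replicate 1) to 0.202 and was -0.0864 without both. Psph, at 0.03, ranged from -0.00881 (without wild-type replicate 3) to 0.0560. The cause of these changes was not tested.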
